A study of Mus musculus with 6 samples.

Results

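The nuclear-encoded subunits of the oxidative phosphorylation machinery were followed in the small intestine of mice with and without Cftr. They were taken as the probe sets of the array whose single gene symbol belongs to the families Ndufa, Ndufb, Ndufc, Ndufs, Ndufv, Sdha to Sdhd, Uqcr, Cox4 to Cox8 and Atp5, or is Cyc1 or Cycs. The rule used names alone and no measured value. It found 101 of the 12422 probe sets that are not array controls, standing for 73 of the 8251 genes with a probe set of a single symbol. By complex, these were 31 genes of complex I, 4 of complex II, 8 of complex III, cytochrome c, 15 of complex IV and 14 of complex V. A further 10 probe sets of these families carry more than 1 symbol, mostly a pseudogene or a close copy, and were left out.

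Total RNA came from the whole small intestine of single mice aged 40 days, congenic on the black6 background. The controls were 3 CFTR(+/+) mice and the nulls 3 CFTR(-/-) mice, each group with 2 males and 1 female, the females being control replicate 3 and null replicate 2. All 6 mice had been fed Peptamen from the age of 10 days, a diet given against blockage of the gut, so controls share that diet with nulls. Replicates are numbered here in the order of deposit, since the labels give no numbers. The sample titles are codes that the labels do not explain, and any relation between mice that they may hold was not used. Nothing else in the labels pairs mice of the 2 groups. The p-values set the difference between the groups against the spread between mice of a group.

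Oxidative phosphorylation makes most of the ATP of an absorptive enterocyte. Complex I (NADH dehydrogenase) and complex II (succinate dehydrogenase) pass electrons to ubiquinone, complex III hands them on to cytochrome c, complex IV (cytochrome c oxidase) reduces oxygen, and complex V (ATP synthase) uses the proton gradient to make ATP. Several subunits of complexes IV and V exist as isoforms from separate genes, some of them typical of muscle or testis. The cell types of a whole gut differ in their mitochondria, and in bulk RNA fewer cells of a type and less RNA per cell cannot be told apart.

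The values are 1-colour Affymetrix intensities (arbitrary units), already scaled: all 6 arrays had a 2%-trimmed mean of 500.3. A change is the null mean minus the control mean of log2(value + 12), which understates the change of dim probe sets, and testing required a value above 109.7 on at least 3 arrays. Intensities of different probe sets are not compared, since their probes differ. The Cftr probe set that could be tested was at 801.6, 1017.5 and 1002 in the controls and at 325.9, 295.6 and 368.5 in the nulls. The other Cftr probe sets, at most 139.9 and 33.6 in any mouse, could not be tested and had groups that overlap. The labels do not say what the null allele lacks. The enterocyte gene villin, Vil1, was bright in every mouse, between 6960.1 and 11810.1.

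Of the 73 genes, 67 had a probe set that could be tested, and 78 of the 101 probe sets were tested. The test was limma's moderated test with Benjamini-Hochberg adjustment over all 7601 probe sets tested, at a threshold of 0.05. Of the 78, 0 rose and 1 fell, that of Cox7a1, so 0 of the 67 genes rose and 1 fell. Over all probe sets tested, 1.13% were called higher and 1.87% lower in nulls, and the members' share of 1.28% called lower lies near that background. Counted by gene, the background was 1.14% higher and 1.99% lower. At an unadjusted p under 0.05 there were 7 of the 78 (8.97%), against 17.3% of all probe sets tested. The median log2 change of the 67 genes was 0.06, beside 0.03 for all 5717 genes tested. There were 40 genes above 0 and 27 below. The 23 probe sets not tested had means from 4 to 92.75, and 6 genes had no other: Ndufa12, Ndufc2, Cox5a, Cox6a2, Cox8a and Atp5j2.

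The interval of each change says how large a difference these 6 mice leave room for. The 95% interval lay within a 1.5-fold change either way in 56 of the 67 genes (83.6%) and in 46.7% of all genes tested. It lay within a 2-fold change in 64 (95.5%), and in 83.3% of all genes. Members are bright, and brighter genes have smaller errors, so the same was read for genes with a mean over 1000. This floor does not make the errors equal: the median standard error was 0.12 for such members and 0.14 for all such genes. Of 53 such members 50 had intervals within 1.5-fold (94.3%), against 60.3% of 1576 such genes, and 53 of 53 moved by less than 0.5, against 84.9%. The mean is taken over all 6 mice, so Cox7a1, with a control mean of 1066 and a mean of 811.2, is not among the 53, nor are Cox6b2 and Atp5g1, the other 2 members that moved by more than 0.5. These shares describe the list and are no test of it.

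**Figure D1:**
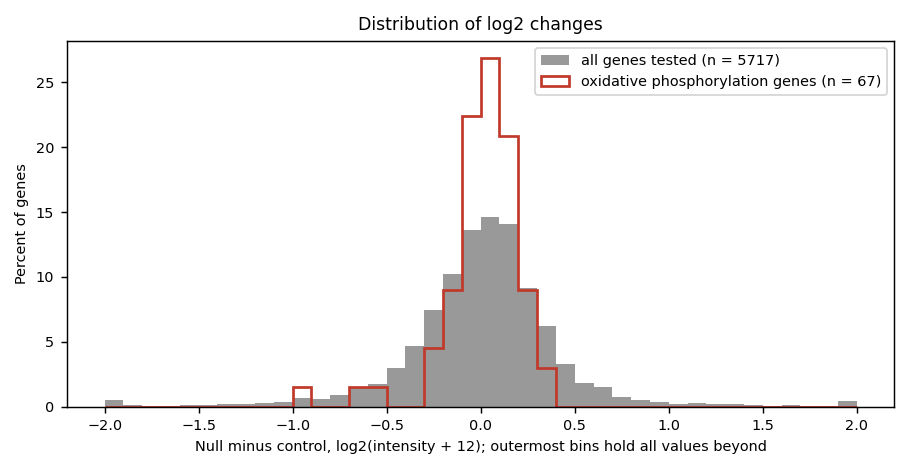
Log2 change (null minus control, log2 of intensity + 12) on the x axis and percent of genes on the y axis, for all 5717 genes tested (grey) and for the 67 oxidative phosphorylation genes (red line). The members gather around 0, with a median of 0.06, and 3 lie below -0.5.

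Cox7a1 was the member that fell. It encodes the heart and skeletal muscle isoform of subunit VIIa of cytochrome c oxidase, a small membrane subunit. The gene has a single probe set among the members, so no second probe set could be read beside it. The controls, in the order of their replicate numbers, had 1065.3, 1022 and 1110.6, and the nulls 531.3, 582.4 and 555.7. The lowest control was far above the highest null, and mice of a group lay close together. The control mean was 1066 ± 44.3 and the null mean 556.5 ± 25.6 (SD over 3 mice each). The log2 change was -0.92 (SE 0.11, 95% interval -1.18 to -0.67, limma adjusted p = 0.00704), a 1.90-fold fall, and its p ranked 36th of the 7601. In males alone, 2 against 2, the change was -0.93 but the call was lost (limma adjusted p = 0.0564).

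The other 2 genes for this position in the enzyme did not pass. Cox7a2, the isoform found in most tissues, was at 9151.7, 7660 and 8845.8 in controls and 8971, 9382.1 and 8304.2 in nulls. The groups overlapped (log2 change 0.06, 95% interval -0.21 to 0.32). Cox7a2l, a related protein that takes part in joining complexes III and IV into supercomplexes, was at 2034.3, 1910 and 1846.1 in controls and 2265.4, 1903.5 and 1988.9 in nulls (log2 change 0.09, 95% interval -0.18 to 0.35). The change of Cox7a1 minus that of Cox7a2, computed within each mouse, was -0.98, and minus that of Cox7a2l -1.01. Both had p = 0.1 by a two-sided exact permutation test, the smallest that 3 mice against 3 can give, and p = 0.1 after adjustment over the 4 isoform pairs compared.

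**Figure D2:**
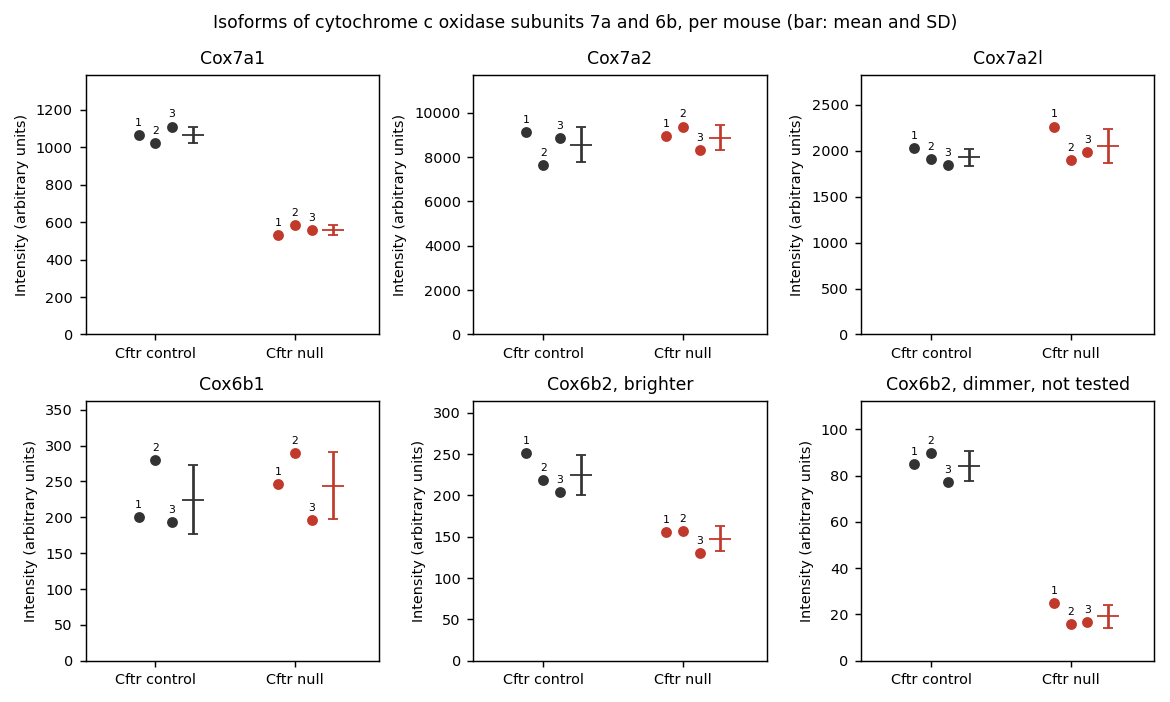
Intensity (y axis, arbitrary units, from 0) of each mouse by genotype (x axis) for the 3 subunit VIIa genes and for Cox6b1 and 2 probe sets of Cox6b2; numbers are replicates, bars the mean and SD of 3 mice. Cox7a1 lies between 1022 and 1110.6 in controls and between 531.3 and 582.4 in nulls, while the groups of Cox7a2 and Cox7a2l overlap.

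The promoters of the paired isoforms, and that of Cox6a1 as a member with motifs of mitochondrial gene regulators, are shown because Cox7a1 and Cox7a2 fill the same place in the enzyme and gave different values here. Each is the 250 bases before the RefSeq start in build GRCm38.p6, 5′ to 3′ on the gene's strand: Cox7a1 at chr7:30183921-30184170 (plus), Cox7a2 at chr9:79759854-79760103 (minus) and Cox6a1 at chr5:115348959-115349208 (minus). Capitals mark GCATGCG (part of the NRF-1 motif), CCGGAAG (the site of GABP and other Ets factors), AAGATGGC (YY1) and CCAAT, on either strand.
Cox7a1: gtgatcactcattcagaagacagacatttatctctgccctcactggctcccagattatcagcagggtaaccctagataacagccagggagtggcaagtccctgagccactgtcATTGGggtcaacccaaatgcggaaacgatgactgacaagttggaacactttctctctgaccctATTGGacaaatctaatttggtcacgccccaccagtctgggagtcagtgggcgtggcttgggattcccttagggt
Cox7a2: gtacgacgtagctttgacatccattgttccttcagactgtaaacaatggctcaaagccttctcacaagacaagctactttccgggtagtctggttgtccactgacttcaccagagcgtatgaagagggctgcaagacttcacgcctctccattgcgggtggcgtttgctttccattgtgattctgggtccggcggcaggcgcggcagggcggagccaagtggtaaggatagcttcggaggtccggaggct
Cox6a1: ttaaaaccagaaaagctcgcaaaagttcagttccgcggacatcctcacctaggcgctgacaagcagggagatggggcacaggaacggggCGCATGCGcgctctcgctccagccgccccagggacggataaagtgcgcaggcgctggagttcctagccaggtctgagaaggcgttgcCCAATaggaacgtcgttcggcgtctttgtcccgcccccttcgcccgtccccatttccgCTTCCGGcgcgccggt
Cox7a1 has CCAAT in reverse at 137 and 74 bases before the start and none of the other 3 motifs, and Cox7a2 has none of the 4. Cox6a1 has the NRF-1 part on both strands, where the matches overlap, CCGGAAG in reverse and CCAAT. Promoter windows of 300 bases, which run 50 bases past the start, were found for 59 of the 73 member genes. GCATGCG was in 12 of the 59 (20.3%) and in 4.01% of the 27025 genes with a window, CCGGAAG in 16 (27.1%) and 9.93%, AAGATGGC in 8 (13.6%) and 3.19%, and CCAAT in 25 (42.4%) and 41.1%. Of 3 other motifs searched, TATAAA was in 6 members (10.2%, against 15.7% of all genes), CAGCTG in 4 (6.78% against 18.3%) and the MEF2 letters TAAAAATA in 0 (3.09% of all). These are matches of letters on either strand in these windows. Member windows also had a higher GC content (median 58.8%) than all windows (52.7%), and its part in these shares was not tested.

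Since Cox7a1 is a muscle isoform, muscle and other marker lists were read beside it. Of 10 smooth muscle genes tested, 1 rose (gamma-2 actin, Actg2, log2 change 1.35, limma adjusted p = 0.0151) and 0 fell, with a median of 0.22. The Actg2 call was lost in males alone and without null replicate 1 or 3 (limma adjusted p up to 0.0856). The summed intensity of the genes tested, here and for the lists that follow, was between 15633 and 21966 in controls and between 23715 and 28221 in nulls, which is higher in every null than in any control. Of 15 striated muscle genes 5 could be tested and 0 passed (median 0.11). Their summed intensity was between 691.4 and 933.5 in controls and between 854.4 and 925.7 in nulls. Myoglobin, Mb, at most 16 in any mouse, and Tnni2, at most 8.8, were among the striated muscle genes too dim to be tested. Of 8 fat cell genes with a probe set 4 could be tested and 0 passed. The summed intensity of the 4 was between 1252 and 1590 in controls and between 1421 and 1529 in nulls. Adipoq, at most 87.8, was among the fat cell genes too dim to be tested. The 14 enterocyte genes had a median of -0.30, with 1 that fell (the alkaline phosphatase Akp3, log2 change -1.94, limma adjusted p = 0.00398) and 0 that rose. Their summed intensity, between 158390 and 194229 in controls and between 111505 and 152218 in nulls, was lower in every null, as Cox7a1 was, and its part in that result was not tested. This sum, too, follows its brightest genes, and the enterocyte genes did not move together. Fabp2, with a mean of 13040, had a log2 change of -1.31, while Krt19, with a mean of 12090, had 0.21. Of 7 pancreatic acinar genes 0 passed (median 0.01). Of 10 leukocyte genes 3 rose, the mast cell genes Mcpt1, Mcpt2 and Cpa3, and 1 fell, Lyz2, whose call held under 8 of the 18 alternatives that refit it (median 0.16), and their summed intensity was between 8076 and 10737 in controls and between 10949 and 18523 in nulls.

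Cox6b2, the testis isoform of subunit VIb, had lower values in nulls but did not pass. Its brightest probe set was at 251.6, 219.1 and 203.9 in controls and 156, 157.3 and 130 in nulls (log2 change -0.57, 95% interval -0.98 to -0.16, limma adjusted p = 0.151). Every control lay above every null. A second probe set, listed in the platform annotation under the same sequence record, was at 85.1, 89.8 and 77.3 in controls and 25, 16 and 16.8 in nulls. All 6 values lie below the level a probe set needed to be tested, and in a fit without that filter it was the second member called lower. Its remaining probe set was at most 39.8 in any mouse, with groups that overlap. Every Cox6b2 probe set has a suffix letter that can mark cross-hybridization, as has the single probe set of Cox6b1. The general isoform Cox6b1 was at 200.2, 280 and 194 in controls and 246.2, 289.8 and 195.9 in nulls (log2 change 0.11, 95% interval -0.37 to 0.60). The difference between the changes of Cox6b2 and Cox6b1 was -0.68 (exact permutation p = 0.1, also adjusted). That is the smallest p that 3 mice against 3 can give.

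The remaining genes of complex IV gave changes between -0.15 and 0.10 with intervals that include 0. Cox4i1 and Cox5b, regulatory subunits around the catalytic core, had log2 changes of -0.11 and 0.07. Cox5b was at 6861.7, 5948.6 and 7108 in controls and 7227.9, 7393.2 and 6220.2 in nulls, with groups that overlap. Cox6a1, the general isoform of subunit VIa, was at 13614 ± 1413 in controls and 13528 ± 804.4 in nulls (SD, n = 3 each; log2 change -0.01). Cox6c, which had groups that overlap, was at 10756 ± 1181 and 9700 ± 855.6 (log2 change -0.15). Cox7b was at 4846 ± 834.0 and 5137 ± 1044 (log2 change 0.08). The muscle isoform Cox8b (log2 change -0.01) and the testis isoform Cox8c (0.10) had intervals of -0.64 to 0.62 and -0.33 to 0.53. The muscle isoform Cox6a2, at most 43.9 in any mouse, could not be tested. Neither could Cox5a (at most 65.5) and Cox8a (at most 13.1), general subunits of the enzyme whose probe sets were dim in both groups, so no statement on them can be made from this array.

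**Figure D3:**
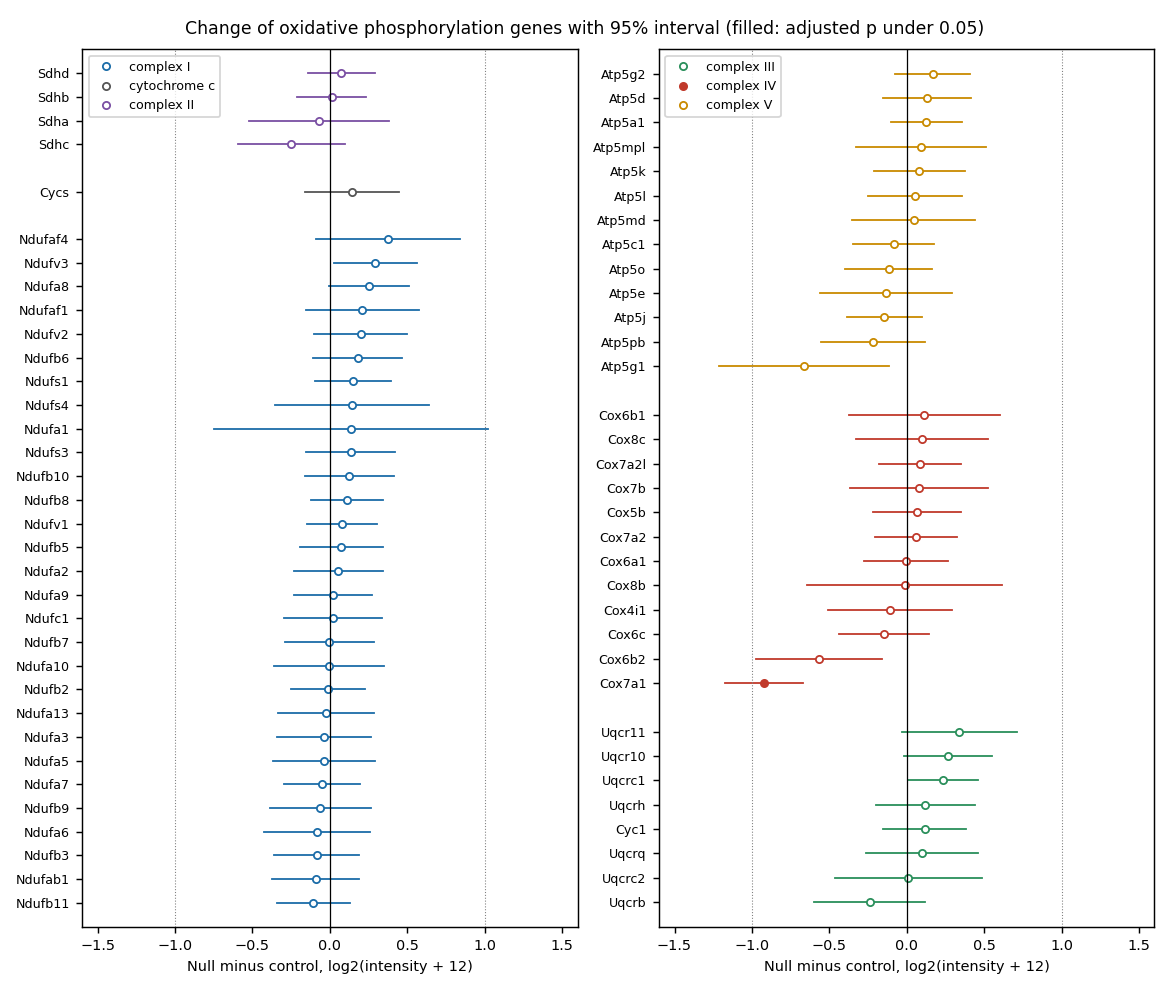
Log2 change (x axis, null minus control, log2 of intensity + 12) with its 95% interval for each of the 67 genes, grouped by complex in colour; filled points passed the test and dotted lines mark a 2-fold change. Cox7a1, at -0.92, is the filled point, and 64 of the 67 intervals lie inside the dotted lines.

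Complex I was represented by 29 genes tested, with a median log2 change of 0.06 and a range from -0.11 to 0.38, and 0 passed. The matrix arm carries the flavin and the iron-sulfur clusters. Of its core subunits, Ndufs1 was at 1884.6, 2021.3 and 2038.4 in controls and 2059.2, 2264.6 and 2267.2 in nulls, without overlap (log2 change 0.15, 95% interval -0.10 to 0.39). Ndufv1, which binds NADH, was at 7006.7, 7056.7 and 6725.2 in controls and 7672.9, 7030.6 and 7250.5 in nulls, with overlap (log2 change 0.08). The changes of Ndufs3 and Ndufv2, both parts of the same arm, were 0.14 and 0.20, with groups that overlap. A second, dimmer probe set of Ndufv2 gave -0.09, so the direction of Ndufv2 depends on the probe set. The core genes Ndufs7 and Ndufs8 were not analysed here. Among accessory subunits the highest change of a gene was that of Ndufv3, at 1142.6, 958.9 and 1103.1 in controls and 1354.9, 1267.7 and 1301.2 in nulls. The groups did not overlap, but the gene did not pass (log2 change 0.29, 95% interval 0.02 to 0.56, limma adjusted p = 0.249). Ndufa8 was at 1919.6, 1708.6 and 2008.4 in controls and 2185.1, 2313 and 2213.3 in nulls, again without overlap (log2 change 0.25, limma adjusted p = 0.293). The lowest change was that of Ndufb11, a subunit of the membrane arm, at 2462.3, 2431.9 and 2639.8 in controls and 2277.3, 2341 and 2376.5 in nulls, without overlap (log2 change -0.11, 95% interval -0.34 to 0.13). The 2 members that are assembly factors and not subunits, Ndufaf1 and Ndufaf4, had log2 changes of 0.21 and 0.38, the latter the highest in complex I (limma adjusted p = 0.387).

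All 4 subunits of complex II, which is also an enzyme of the citric acid cycle, were tested and 0 passed. The flavoprotein Sdha was at 1068.9, 1547.4 and 978.7 in controls and 1026.9, 1021.2 and 1332.2 in nulls, with control replicate 2 and null replicate 3 standing higher than the others. The iron-sulfur subunit Sdhb was at 5876 ± 120.0 and 5925 ± 236.0 (SD, n = 3 each; log2 change 0.01, 95% interval -0.21 to 0.24). The membrane anchors had the lowest and the highest change: Sdhc had -0.25 (95% interval -0.60 to 0.10) and Sdhd 0.08 (95% interval -0.14 to 0.29). For Sdhd the groups did not overlap, at 8180, 8303.1 and 7948 in controls and 8505.1, 8502.4 and 8727.4 in nulls, although the change was small.

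Complex III had a median of 0.12 over 8 genes, of which 7 were above 0 and 0 passed. The median was 0.014 without control replicate 2, in which these genes were low, and between 0.08 and 0.21 without any 1 of the other 5 mice. Uqcrc1, the large core protein, was at 8370.7, 7576.4 and 8207.3 in controls and 9688.2, 9391.6 and 9333.6 in nulls. Its groups did not overlap (log2 change 0.24, 95% interval 0.01 to 0.46, limma adjusted p = 0.274). Its partner Uqcrc2 was at 5689 ± 1201 and 5723 ± 1231 (SD, n = 3 each; log2 change 0.01). The small subunit Uqcr10 was at 3994.3, 3595.2 and 4033.6 in controls and 5198.3, 4688.4 and 4147.4 in nulls, also without overlap (log2 change 0.27, limma adjusted p = 0.315). Uqcr11 had the highest change of the complex, 0.34 (95% interval -0.03 to 0.71), with groups that overlap, and Uqcrb the lowest, -0.24 (95% interval -0.60 to 0.12). Cyc1, the heme-bearing cytochrome c1, was at 13101 ± 1275 and 14163 ± 921.4 (log2 change 0.12). The Rieske protein gene Uqcrfs1 was not analysed here. Soluble cytochrome c, Cycs, was at 1515.4, 1322.2 and 1735.5 in controls and 1567.9, 1771.9 and 1690.7 in nulls (log2 change 0.14, 95% interval -0.16 to 0.45), with groups that overlap.

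In complex V 13 genes were tested, with a median of 0.04, and 0 passed. The catalytic head is represented by Atp5a1 (alpha subunit) and the stalk by Atp5c1 (gamma) and Atp5d (delta); Atp5b was not analysed here. Atp5a1 was at 11095.1, 9907.5 and 10793.6 in controls and 11825.4, 11397 and 11452.1 in nulls. Its groups did not overlap (log2 change 0.13, 95% interval -0.10 to 0.36). Atp5c1 was at 9706 ± 871.1 in controls and 9135 ± 524.6 in nulls (SD, n = 3 each; log2 change -0.08, 95% interval -0.35 to 0.18). Atp5pb, the b subunit of the outer stalk, was at 235.3, 247.6 and 241.2 in controls and 194.6, 223.2 and 200.7 in nulls, without overlap (log2 change -0.22, limma adjusted p = 0.492). Atp5g1 and Atp5g2 encode the same mature ring subunit behind different import signals. Atp5g2 was at 799, 845.4 and 789.7 in controls and 920.2, 912.8 and 905.5 in nulls, without overlap (log2 change 0.17, 95% interval -0.07 to 0.41). Another Atp5g2 probe set, too dim to be tested, was at 83.6, 113.3 and 103.6 in controls and 77.7, 97.5 and 80.8 in nulls, with overlap. The brightest probe set of Atp5g1 was at 368, 286.5 and 274 in controls and 238.3, 132.7 and 212.8 in nulls (log2 change -0.66, 95% interval -1.21 to -0.12, limma adjusted p = 0.202). A second one was at 170.1 ± 18.8 and 186.9 ± 21.2 (SD, n = 3 each; log2 change 0.13), so the direction of Atp5g1 depends on the probe set. The difference between the changes of Atp5g1 and Atp5g2 was -0.83 with the brightest (exact permutation p = 0.1, also adjusted). That is the smallest p that 3 mice against 3 can give. Both probe sets compared have a suffix letter that can mark cross-hybridization. Atp5g3 was not analysed here.

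Of 9 genes with more than 1 tested probe set, 5 had probe sets whose changes differ in sign. The largest gaps were 0.79 for Atp5g1, 0.76 for Ndufa3 and 0.53 for Atp5l. For Ndufa3, a complex I subunit, a dim probe set was at 131.7, 169 and 88.1 in controls and 204, 215.9 and 226.8 in nulls (log2 change 0.72, limma adjusted p = 0.179), while the bright one was at 4793 ± 615.1 and 4650 ± 335.5 (SD, n = 3 each; log2 change -0.04). For Atp5l, a subunit of the ATP synthase membrane part, a dim probe set gave 0.58 (limma adjusted p = 0.210), with controls from 120.1 to 173.5 and nulls from 181.6 to 248.8. The bright one gave 0.05. These dim probe sets supply 2 of the 10 tested member probe sets in which every null lay above every control. That is 12.8% of the 78, against 13.1% of all probe sets tested. Every null lay below every control in 5 (6.41%), against 10.8%.

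The members also differed between mice of 1 group. By replicate number, the members' median deviation from the control mean (log2) was 0.07, -0.11 and 0.05 for the controls and 0.07, 0.11 and -0.06 for the nulls. Control replicate 2 and null replicate 3, both males, thus had the lowest medians of their groups. Among the 53 bright members, control replicate 2 was the lowest control in 42 (79.2%) and null replicate 3 the lowest null in 37 (69.8%). Of all 1576 genes that bright, these 2 mice were the lowest of their group in 49.8% and 42.6%. Both arrays also had lower bright values in general, with a 99th percentile of 9039.6 and 9349 against 10147 to 10667 on the other 4, and the part of this in the members' values was not tested. After quantile normalization, which gives all arrays the same distribution, the shares of bright members were 69.8% and 58.5%, against 45.7% and 40.8% of all genes that bright. By complex the medians of control replicate 2 were below the control mean for complexes I (-0.11), III (-0.25), IV (-0.11) and V (-0.13) and above it for complex II (0.09). Null replicate 3 was low for complexes IV (-0.16) and V (-0.15) and near the control mean for complexes I (0.02) and III (0.01).

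**Figure D4:**
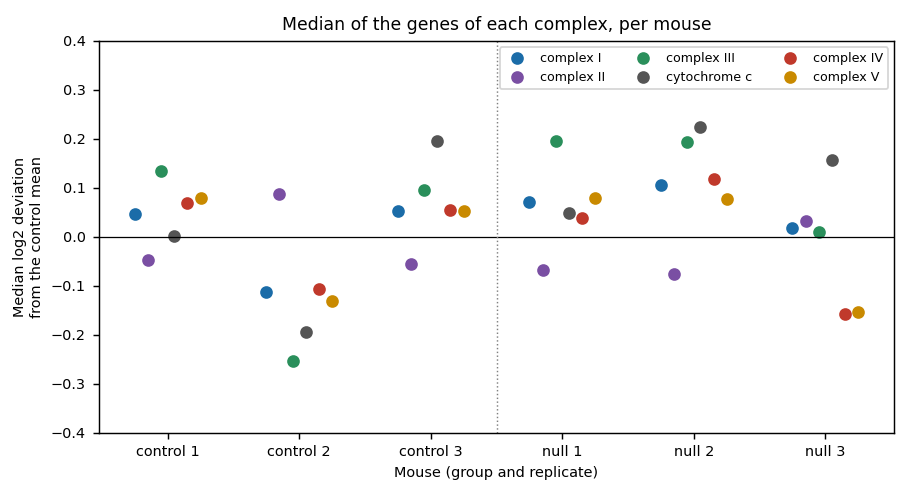
Median log2 deviation from the control mean (y axis) of the genes of each complex in each mouse (x axis, group and replicate); each point is 1 complex. Control replicate 2 lies lowest for complex III (-0.25), and null replicate 3 for complexes IV (-0.16) and V (-0.15).

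**Figure D5:**
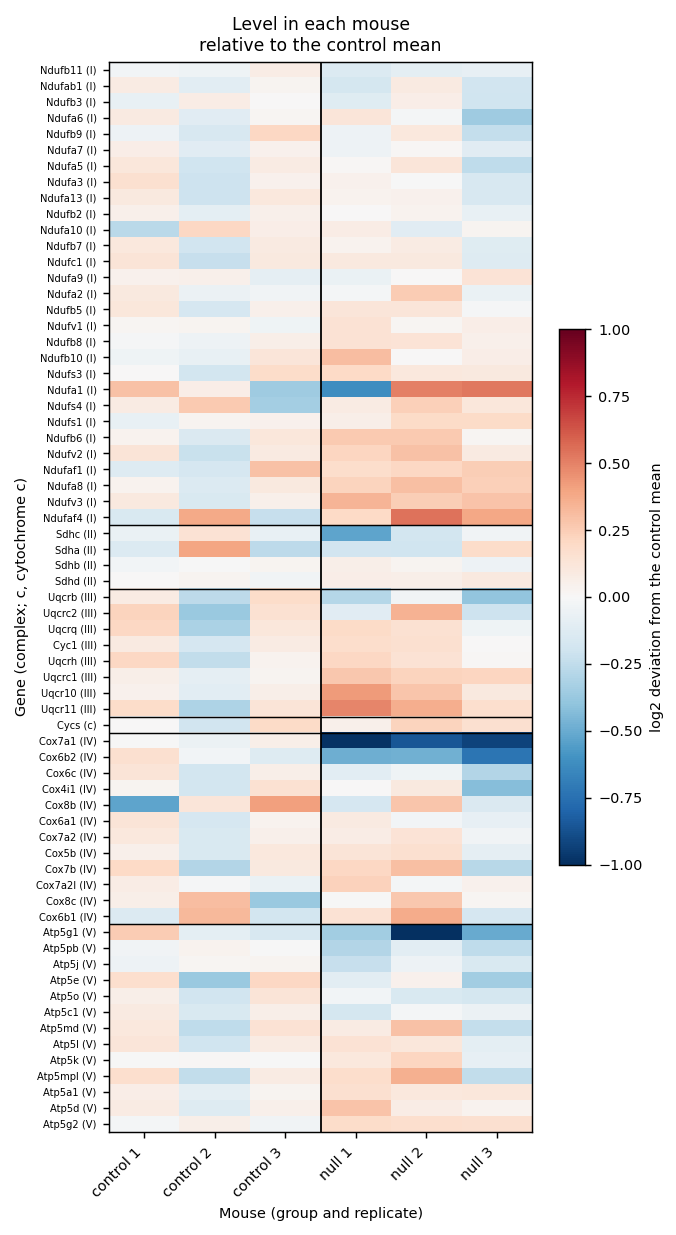
Level of each of the 67 genes (rows, complex in brackets) in each mouse (columns) as the log2 deviation from the control mean, blue for lower and red for higher, with colours saturated at 1. The dark blue row is Cox7a1, low in all 3 nulls, and most genes of complex V other than Atp5g1 are pale in every mouse.

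Other mitochondrial genes were read from lists of the pathway. Of 16 genes for assembly of the complexes tested, 2 of them the members Ndufaf1 and Ndufaf4, 1 fell and 0 rose (median 0.08). It was Hccs, the enzyme that attaches heme to cytochromes c and c1, at 1134, 1119.4 and 1185.4 in controls and 709.9, 862.2 and 709.8 in nulls (log2 change -0.59, limma adjusted p = 0.0481). This call held under 6 of the 18 alternatives that refit its value, and it was lost without any 1 of the 3 controls or of null replicates 1 and 3 (limma adjusted p up to 0.164 over all alternatives). Of 19 genes of the citric acid cycle and pyruvate dehydrogenase, 1 fell and 0 rose (median 0.05); it was Pdk4, a kinase that inhibits pyruvate dehydrogenase (log2 change -2.68, limma adjusted p = 0.0169). The Pdk4 call was lost without control replicate 1 or null replicate 1 (limma adjusted p up to 0.0856). Of 20 genes of protein import 1 rose and 0 fell (median 0.16): Tomm40, the channel of the outer membrane, was at 261.6, 306.6 and 247.6 in controls and 607.4, 524.8 and 647.1 in nulls (log2 change 1.09, limma adjusted p = 0.0104). The Tomm40 call was lost without null replicate 1 (limma adjusted p = 0.0635). Of 58 mitochondrial ribosomal proteins 0 passed (median 0.16), with 15 in which every null lay above every control and 0 the other way. Over all genes tested those shares were 13.2% and 11.3%. Of 10 regulators of mitochondrial biogenesis 0 passed (median -0.02). The estrogen-related receptor gene Esrra was at 2907 ± 131 in controls and 2901 ± 505 in nulls (SD, n = 3 each), and the coactivator Ppargc1a, at most 95.3, was too dim to be tested. Of 9 mitochondrial carriers 0 passed (median 0.07), with 0 in which every null lay above every control and 2 the other way. Their summed intensity was lower in every null (19705 to 23545) than in any control (23846 to 25436). A sum follows its brightest genes, and the carriers did not move together. Slc25a15, with a mean of 5488, had a log2 change of -0.75, while Slc25a5, with a mean of 5817, had 0.14. Of 15 glycolytic genes 0 passed (median 0.17), with 7 above without overlap and 1 below. Their summed intensity was higher in every null (61881 to 73480) than in any control (50623 to 58995).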

How the data were processed

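RNA of 6 small intestines, 3 control and 3 null, was measured on 6 Affymetrix arrays, 1 mouse each. The deposited values are probe set intensity on a linear scale; their equal trimmed means show that they had been scaled before deposit, and their software is not stated in the labels. Probe sets were named from the platform annotation; Entrez identifiers of all 73 member genes were found in the RefSeq table, which changed 0 symbols. Values were used as deposited, as log2(value + 12), where 12 is the rounded 10th percentile. A probe set was tested if above 109.7, the 40th percentile, on 3 or more of 6 arrays, which left 7601 of 12422. The groups were tested two-sided in limma 3.58.1 under R 4.3.3 (lmFit, then eBayes with its trend option), and p-values were adjusted by Benjamini-Hochberg over all probe sets tested. The fit was tested on simulated data. Each gene stands by its brightest tested probe set. Of the 101 member probe sets 37 have a suffix letter that can mark cross-hybridization. Promoters are RefSeq windows of build GRCm38.p6.

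The members and the gene lists were chosen with earlier results of these data known. Genes named with values are those called, the highest and lowest of each complex, a list of core subunits and isoforms, the members whose groups do not overlap with the largest changes, and called genes of the other lists; further genes, such as Cox6c, Cox7b, Cox8c, Vil1, Mb, Tnni2, Adipoq, Esrra and Ppargc1a, were added after their values were seen. Each mouse was taken as 1 replicate. Alternatives changed the normalization (quantile, or equal medians), the pseudocount (3 or 48), the filter (none, or 288.7), the eBayes options, the choice of probe sets and members, and the mice (a term for sex, males alone, each mouse left out). Detection calls were not used here.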

Additional observations from a re-analysis of the deposited data

How the results depend on the processing

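Cox7a1 stayed lower in nulls and past the threshold under 17 of the 18 alternatives that refit its value, with limma adjusted p from 0.00466 to 0.0451; males only gave 0.0564. In males only, the member genes and the member probe sets called lower were both 0. Without the filter 2 member probe sets were called lower, the second being a dim one of Cox6b2. Members called higher were 0 under every alternative. The median log2 change of member genes lay between -0.01 and 0.11. Under each alternative it differed from the main value of 0.06 by less than 0.089, the SD between mice of a group of the members' median level. Leaving out 1 mouse at a time gave 1 member called lower each time, 11 to 25 probe sets in which nulls lay above controls without overlap (25 without null replicate 3, 16 without control replicate 3, against 10) and 5 to 15 below (15 without control replicate 2, 10 without null replicate 2, against 5). Males only gave 17 above and 11 below, the filter at the 60th percentile 2 below, and leaving out probe sets named for possible cross-hybridization 3 below. Leaving out control replicate 2 and null replicate 3 together, chosen after seeing the data, gave 29 above and 17 below. Fewer mice make groups overlap less, in members and in other probe sets alike. The shares over all probe sets were not computed under these alternatives, so the counts do not show a shift of the members.

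Some changes turned sign, none of them called. Quantile normalization gave 0.023 for Cox6a1, and the mean over probe sets 0.34 for Ndufa3. Atp5g1 was at 0.13 without probe sets named for possible cross-hybridization, which leaves its dimmer one. Males only gave 0.022 for Cox6a1, -0.10 for Cox6b1, 0.048 for Cox8b and -0.083 for Uqcrc2. Without control replicate 2 and null replicate 3 together, Cox8b was at 0.11, Sdha at 0.0017 and Uqcrc2 at -0.069. The cause was not tested. The median of complex V was -0.08 without control replicate 2 (complex II 0.05, complex III 0.014) and -0.08 without null replicate 2. Calls of genes of the other lists held under every alternative for Akp3 and Mcpt2 and were lost under some for Hccs (12 of 18 alternatives), Lyz2 (10), Actg2 (4), Pdk4 (3), Tomm40 and Mcpt1 (1 each), and for Cpa3 under 1 of the 14 that gave a value. Leaving out 1 mouse at a time, the change lay for Atp5l from -0.047 to 0.13, Cox4i1 from -0.21 to 0.051, Cox5b from -0.012 to 0.14, Cox6a1 from -0.089 to 0.060, Cox6b1 from -0.012 to 0.28, Cox7a2 from -0.020 to 0.11, Cox8b from -0.28 to 0.19, Ndufa3 from -0.14 to 0.043, Sdha from -0.20 to 0.13, Sdhb from -0.012 to 0.044 and Uqcrc2 from -0.18 to 0.12.
No paired analysis was run. The labels give no replicate numbers, and the titles are unexplained codes that were not used to pair mice. Any relation between mice that the titles may hold was not examined. With 3 mice a group, precision is limited throughout, and dim probe sets give no reading of a gene.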
